A study of Drosophila melanogaster with 12 samples.

Results

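The small nuclear RNAs (snRNAs), small nucleolar RNAs (snoRNAs) and small Cajal body RNAs (scaRNAs) of the fly embryo were followed in 2 precipitation experiments. The members are genes whose symbol begins with snRNA:, snoRNA: or scaRNA:, and they were chosen by their counts, which had to sum to 20 or more over all libraries of an experiment. Of 320 such genes in each deposited table, 203 of the 15682 genes of the antibody table and 166 of the 17559 genes of the GFP-binder table passed. In the antibody experiment these were 24 snRNAs, 170 snoRNAs and 9 scaRNAs. In the GFP-binder experiment they were 21 snRNAs, 134 snoRNAs and 11 scaRNAs. Both limits were passed by 154 genes, 215 passed at least 1 of them, and 49 and 12 passed in the antibody or the GFP-binder table alone. The summed counts that chose the members include the counts compared below, so a count of members that differ supports nothing by itself.

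Embryos were 1.5 to 3 h old. For 3 libraries a guinea pig antibody to Slam precipitated the lysate of wild-type embryos, and for 4 control libraries an antibody to Dia, an actin-nucleating formin, was used in its place. In the other experiment a GFP-binder precipitated lysates of embryos with a genomic GFP-slam transgene (2 libraries, numbered 1 and 3) or of wild-type embryos labelled OrR (3 libraries). Slam and Dia proteins both lie at the tip of the furrow that divides the blastoderm into cells, and the study asked which RNAs are bound together with Slam. Every library is a bulk precipitate of whole embryos, and the study calls its replicates biological.

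snRNAs are the RNA cores of the spliceosome, the machine that cuts introns from pre-mRNA, apart from a few with other tasks such as 7SK, which restrains transcription elongation. snoRNAs guide chemical changes of ribosomal RNA in the nucleolus: those with boxes H and ACA direct pseudouridylation, those with boxes C and D direct methylation of the ribose. scaRNAs do the same for snRNAs in the Cajal body. In Drosophila most snoRNAs are cut from introns of host genes, and symbols state the target: Psi18S-920 directs a pseudouridine of 18S ribosomal RNA and Me28S-G2703a a methylation of 28S ribosomal RNA.

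The TruSeq RNA kit was used, whose standard protocol enriches polyadenylated RNA and fragments it. The label of the GFP-binder counts holds the word totalrna, so whether polyadenylated RNA was selected is not settled here. Mature small RNAs of these classes carry no poly(A) tail and many are shorter than the usual insert, so their counts hold an unknown part of the RNA that was bound, and reads from unspliced or unprocessed precursors can be counted with them. Members were mostly the longer genes. Of the 100 genes under 100 nucleotides (nt) in Release 6 of the RefSeq annotation, 52 were members in the antibody table and 21 in the GFP-binder table. Of the 134 genes of at least 100 but under 150 nt, 96 and 95 were members, and of the 55 genes of 150 nt or more, 53 and 49. The longest group held 83.3% and 85.4% of the counts of these genes. The median length was 139 nt for members of the antibody table and 93.5 nt for genes of the same classes below the limit.

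By symbol, the snoRNA members of the antibody table were 93 of box H/ACA, 55 of box C/D and 22 with other names. In the GFP-binder table they were 90, 23 and 21. With both antibodies, 90 members of that experiment reached 20 counts in each group alone, 109 reached it in the Slam libraries and not in the Dia libraries, and 2 the other way round. Of the 55 box C/D members, 46 owed their place to the Slam libraries. Such members had to lie higher with the Slam antibody, so their number and their median are no support for a difference. Members just inside the limit in the antibody table were Me28S-A774a at 20 counts and PsiU6-40 and Psi18S-640g at 21, and just outside it lay MeU5-G38, Me18S-A934 and another scaRNA at 19. In the GFP-binder table Me18S-G1620, Me28S-A2113 and Psi18S-640g summed to 20, MeU1b-A234 and U14:30Eb to 19 and Psi18S-841c to 18.

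Many of these genes are near-identical copies: 143 of the 320 genes fall into 42 families by name, with 97 members in the antibody table and 75 in the GFP-binder table. How reads that match several copies were counted is not given in the sources used here, so levels of single copies are uncertain and sums over a family are given where they differ. The tables were counted differently for some genes. Or-aca4 had 5748 counts in the antibody table and 0 in the GFP-binder table, while Psi18S-1086 had 8 and 23370. Levels are therefore compared within a table only.

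The libraries held 4383704 to 31647090 counts in the antibody experiment, with Dia 3 the shallowest, and 20170936 to 47249817 in the GFP-binder experiment. slam mRNA lay at 31300 to 112300 CPM (counts scaled to equal library size, with TMM factors) with the Slam antibody against 358 to 1513 CPM with the Dia antibody, and at 10630 and 11500 CPM from GFP-slam lysate against 632 to 744 CPM from wild type, and every Slam and GFP-slam library was far above its controls. dia mRNA lay at 685 to 3528 CPM with the Dia antibody and at 137 to 227 CPM with the Slam antibody. Of 6 eggshell genes of follicle cells only Cp18 had enough counts to be tested, in the antibody experiment alone, at up to 0.675 CPM. In the rest no eggshell gene summed to more than 13 counts. Mhc, a gene of later differentiation, lay at 101, 352 and 51.1 CPM with the Slam antibody and at 1417, 385, 79.2 and 64.6 CPM with the Dia antibody. With GFP-slam it lay at 14.2 and 204 CPM, and in wild type at 33.6, 45.2 and 154 CPM. elav and repo reached at most 38.7 and 3.78 CPM.

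Among the members, 3 libraries stood apart from the others of their group. In Slam 3 the 93 box H/ACA members summed to 3845 CPM, against 1821 CPM in Slam 1 and 416 CPM in Slam 2, and 82 of them were highest in Slam 3 of all 7 libraries. In Dia 3 they summed to 1930 CPM, against 707, 651 and 206 CPM in the other Dia libraries. In wild type 1 the 90 box H/ACA members of the GFP-binder table summed to 10540 CPM, against 639 and 1321 CPM in wild type 2 and 3, and the 11 scaRNAs to 3792 CPM against 335 and 264 CPM. The median box H/ACA member lay 13.0-fold above the mean of the other 2 wild-type libraries there, the median scaRNA 12.7-fold, and the median snRNA 1.42-fold. Each library was left out in turn in the fits within an experiment. In the fit over both experiments only Slam 3, Dia 3 and wild type 1 were left out.

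**Figure D1:**
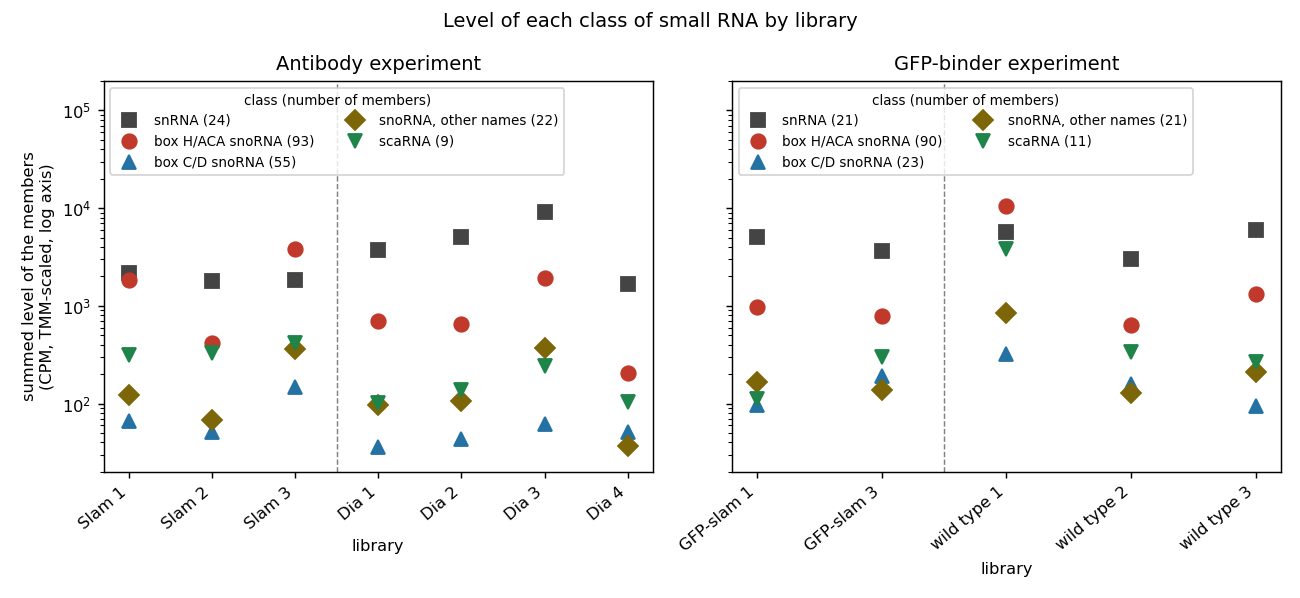
Summed level of the members of each class in every library (CPM scaled by TMM, log axis), with the antibody experiment on the left and the GFP-binder experiment on the right; the dashed line parts each group from its control. Box H/ACA snoRNAs reached 3845 CPM in Slam 3 and 10540 CPM in wild type 1, while snRNAs held 1800 to 2159 CPM in the 3 Slam libraries.

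As a share of all counts, snRNA members took 0.194% ± 0.0018 (SD, n = 3) with the Slam antibody and 0.491% ± 0.315 (n = 4) with the Dia antibody. Without 7SK the snRNA shares were 0.0888% and 0.0475%, so their order turned. snoRNA members took 0.235% ± 0.211 and 0.106% ± 0.0869, and scaRNA members 0.0360% ± 0.0081 and 0.0146% ± 0.0066. From GFP-slam lysate the 3 classes took 0.432% ± 0.0513, 0.118% ± 0.0051 and 0.0218% ± 0.0162 (n = 2), and from wild type 0.483% ± 0.160, 0.475% ± 0.607 and 0.147% ± 0.203 (n = 3). No class sum was tested. No library is of unprecipitated lysate, so how much of an RNA was bound and how much was present cannot be told apart. Nor can the number of cells that held an RNA and its amount per cell.

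Per gene, the ratio of Slam over Dia was fitted with edgeR's quasi-likelihood test across the 10942 genes of the table with at least 20 summed counts, and called where the Benjamini-Hochberg adjusted p over all of them was under 0.05. Of all these genes 6.01% were called higher and 5.07% lower with the Slam antibody. Of the 203 members 37 were higher and 0 were lower by edgeR, while 116 had an unadjusted p under 0.05 in the higher direction and 1 in the lower. Among the 90 members that reached 20 counts in each group alone, 18 were higher. The 37 were 27 of 93 box H/ACA snoRNAs, 6 of 55 box C/D snoRNAs, 1 of 22 snoRNAs with other names, 2 of 24 snRNAs and 1 of 9 scaRNAs. In 63 members every Slam library lay above every Dia library, as it did in 19.0% of all genes tested. In 1 member, 7SK, every Slam library lay below, as in 12.4% of all genes. The median log2 ratio over the members was 3.24, and 2.27 over the 90 that reached 20 counts in each group alone, against 0.09 over all genes tested.

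The calls rested in large part on Slam 3. Of the 37, 33 were highest in that library. Without it 8 of the 167 members still tested were called, of which 6 were among the 37, and 396 of all 10640 genes were higher. Without Dia 1, 2, 3 or 4, 10 of 203, 15 of 202, 22 of 202 and 18 of 203 members tested were higher. Without Slam 1 or 2 it was 21 of 200 and 42 of 193. The median over members was 1.90 without Slam 3. With the replicate number as a block 44 members were higher, 24 of them among the 37, and 5 were lower. Of all 10942 genes that fit called 902 higher and 1129 lower. Its median prior degrees of freedom were infinite, so that a gene's own spread hardly entered it. DESeq2 called 62 members higher and 1 lower, and of all 10942 genes 1120 higher and 538 lower. Only MeU5-C46 and Psi18S-531 kept their call in all 14 alternatives.

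**Figure D2:**
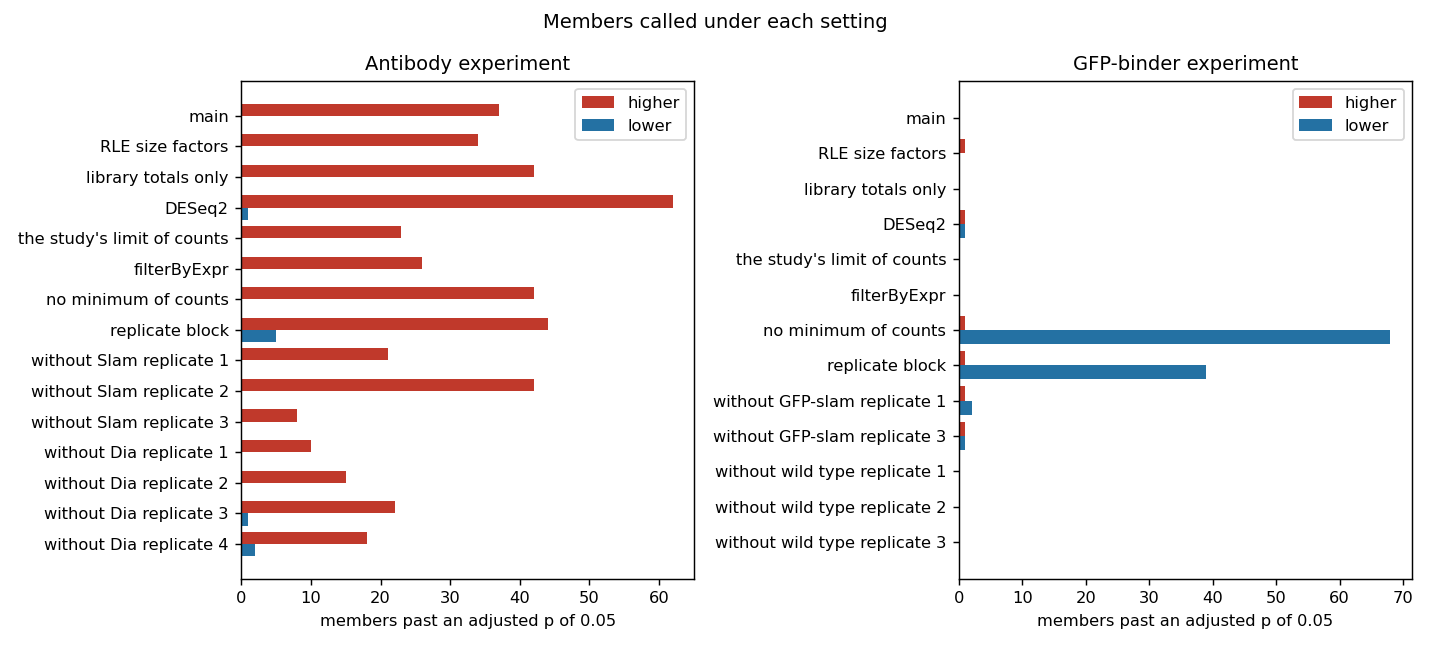
Number of members past an adjusted p of 0.05 (horizontal axis) under the main fit and each alternative, higher in red and lower in blue, for the antibody experiment (left) and the GFP-binder experiment (right). Higher members in the antibody experiment ran from 8 of 167 tested without Slam 3 to 62 of 203 with DESeq2. In the GFP-binder experiment 68 members were lower without a minimum of counts and 39 with the replicate block, against 0 in the main fit. Of all genes 165 of 13557 and 102 of 10061 were lower in those fits.

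The most abundant member was 7SK, the RNA that together with Hexim holds the elongation factor P-TEFb inactive. It is FBgn0065099, at chr3R:7474553-7474996 in the authors' coordinates, whose build is not stated. It lay at 1058, 1392 and 668 CPM with the Slam antibody and at 3185, 4618, 8494 and 1455 CPM with the Dia antibody. Every Slam library was below every Dia library, though Slam 2 and Dia 4 nearly met. The log2 ratio was -2.09 ± 0.60 (SE) with an edgeR adjusted p of 0.065, and its call depended on the setting. 7SK was called lower by DESeq2 (adjusted p 2.6e-04), in the blocked fit (4.2e-15), without Dia 3 (0.040) and without Dia 4 (0.0019), and its adjusted p over the alternatives ran up to 0.253. Hexim mRNA was lower with the Slam antibody (log2 ratio -0.74, adjusted p 0.035), and bin3, which encodes the methyltransferase that caps 7SK, had a log2 ratio of 0.11 (adjusted p 0.80).

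The RNAs of the minor spliceosome, which removes a rare class of introns, lay close together in both groups. U11 lay at 239, 164 and 303 CPM with the Slam antibody and at 216, 193, 277 and 98.4 CPM with the Dia antibody. U12:73B lay at 172, 119 and 181 CPM against 170.0, 119, 193 and 72.5 CPM. Their log2 ratios were 0.27 ± 0.30 and 0.19 ± 0.29, the edgeR adjusted p was 0.59 and 0.70, and neither was called under any of 14 alternatives. U4atac:82E, their partner in the same particle, lay at 7.15, 0.293 and 8.47 CPM against 2.05, 3.71, 1.87 and 0.579 CPM (log2 ratio 1.37, adjusted p 0.34). Slam 2 was the lowest library for it and Slam 1 and 3 the highest.

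The same pattern of libraries ran through U1 and U2, which recognise the start of the intron and its branch point. The 5 U1 members summed to 344, 49.9 and 268 CPM with the Slam antibody and to 77.0, 59.9, 164 and 34.01 CPM with the Dia antibody, most of it from U1:82Eb. U1:82Eb itself had a log2 ratio of 1.46 ± 0.83 (adjusted p 0.30, 0.0071 in the blocked fit). Slam 1 and Slam 3 were high and Slam 2 lay within the Dia libraries. U1:95Cc lay at 55.9, 10.2 and 40.2 CPM against 12.51, 9.80, 32.2 and 5.35 CPM (log2 ratio 1.29, adjusted p 0.31, 0.045 in the blocked fit).

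U2:34ABa, at chr2L:13211925-13212116 in the authors' coordinates, lay at 256, 46.1 and 209 CPM with the Slam antibody and at 60.1, 44.1, 43.0 and 17.7 CPM with the Dia antibody. Again Slam 1 and 3 were high and Slam 2 overlapped the Dia group. The log2 ratio was 2.05 ± 0.68 with an edgeR adjusted p of 0.102, and 3 of 14 alternatives called it: DESeq2 (3.8e-04), the blocked fit (2.8e-07) and the fit without Slam 2 (9.8e-04). The other U2 copies were low: U2:14B lay at 12.9 to 39.1 CPM against 6.46 to 21.4 CPM (log2 ratio 0.86, adjusted p 0.19), and U2:34ABb and U2:34ABc stayed under 7.71 CPM in every library.

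U4, U5 and U6 form the core that is loaded onto the intron last. U4:39B lay at 34.6, 0.644 and 54.5 CPM with the Slam antibody and at 0.805, 0.768, 0.467 and 0.193 CPM with the Dia antibody. Slam 1 and 3 were high, while Slam 2 lay among the Dia libraries, and the log2 ratio of 5.73 ± 1.47 had an adjusted p of 0.062. Of 14 alternatives 4 called it: DESeq2 (1.2e-04), the study's limit of counts (0.046), and the fits without Slam 2 (1.7e-07) and without Slam 3 (0.017). The 6 U5 members summed to 1.79, 0.469 and 106 CPM against 0.293, 1.09, 2.57 and 0.193 CPM, so they were high in Slam 3 alone. U5:38ABa, at 0.268, 0.0293 and 10.6 CPM, was called higher by edgeR (log2 ratio 6.40, adjusted p 0.038), with nearly all of its reads in that library, and 5 of 11 alternatives called it. U5:14B and U5:34A had 0 counts in all Dia libraries and were at least 106-fold and 90.8-fold higher by pooled CPM against a floor of 3 counts over the group, with an adjusted p of 0.111 and 0.085. The blocked fit called both (0.0076 and 0.013), and the fit without Slam 2 called U5:34A (0.021). U6:96Ab was called higher (adjusted p 0.038) at 0.715, 0.381 and 2.16 CPM against 0 counts with the Dia antibody, at least 19.6-fold. In the blocked fit neither U5:38ABa (0.29) nor U6:96Ab (0.090) was called. The snRNAs not described so far averaged under 5.03 CPM over the 7 libraries, and none of them was called.

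**Figure D3:**
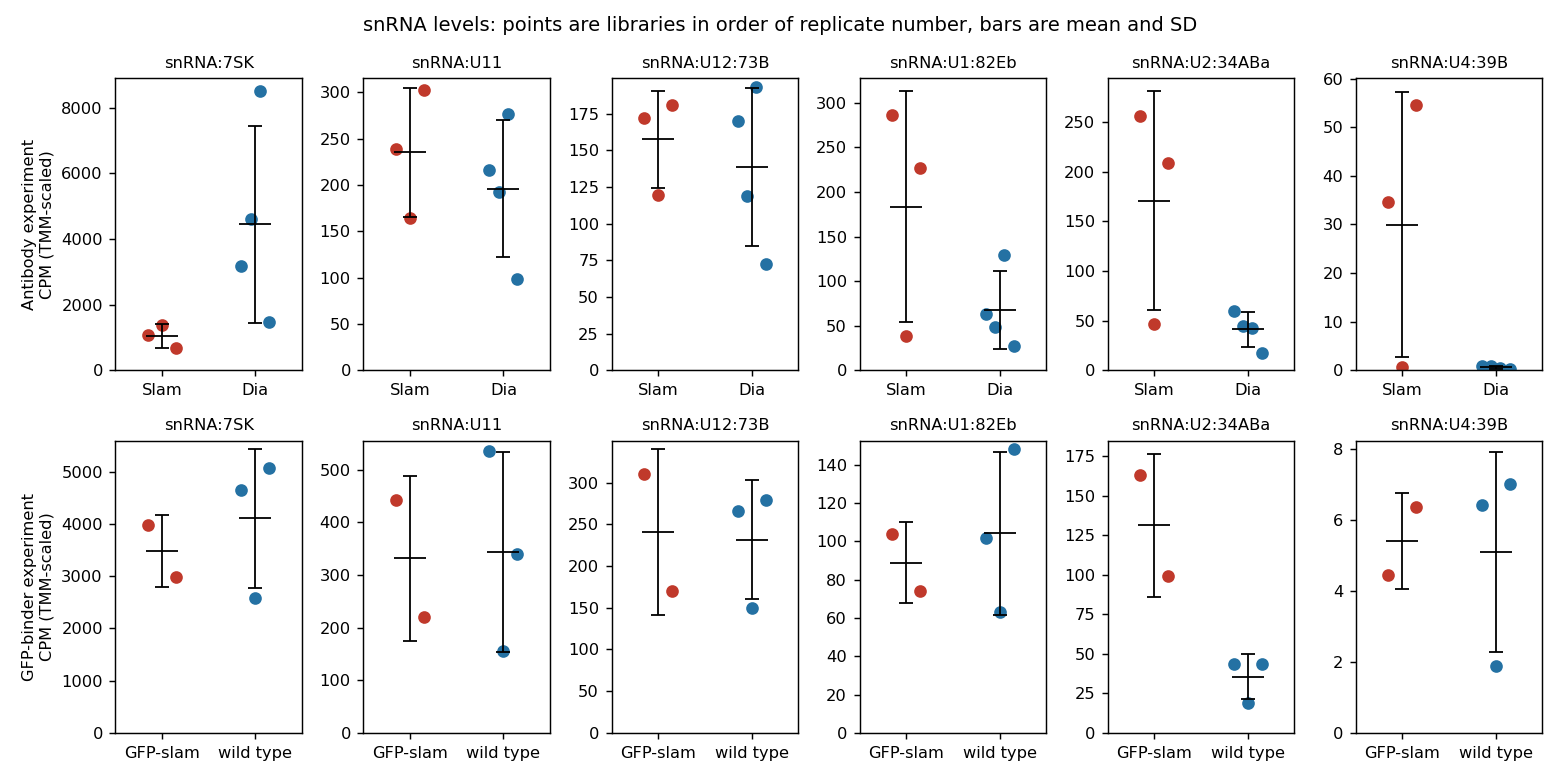
Level of 6 snRNAs (CPM scaled by TMM, linear axes that differ between panels) in the libraries of the antibody experiment (top) and the GFP-binder experiment (bottom), with the mean and SD of each group as bars. 7SK lay at 668 to 1392 CPM with the Slam antibody against 1455 to 8494 CPM with the Dia antibody, and U2:34ABa at 99.3 and 163.5 CPM with GFP-slam against 19.2 to 43.8 CPM in wild type.

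Among the scaRNAs, MeU5-C46, named for a methylation of U5, held nearly all counts of the class. It is FBgn0043853 at chr3R:7472907-7473222 in the authors' coordinates, inside CG1142, and 1330 bases separate it from 7SK. It lay at 305, 328 and 400 CPM with the Slam antibody and at 98.7, 136, 242 and 104 CPM with the Dia antibody. The groups did not overlap and no single library set the difference. The log2 ratio was 1.25 ± 0.28 with an edgeR adjusted p of 0.012, and the adjusted p ran from 6.0e-06 to 0.043 over the 14 alternatives. CG1142 mRNA lay at 65.8 ± 13.3 CPM against 56.3 ± 13.0 CPM (log2 ratio 0.23, adjusted p 0.53).

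PsiU2-55, named for a pseudouridine of U2, lay at 6.39, 1.05 and 4.22 CPM with the Slam antibody and at 0.439, 0.448, 0.234 and 0.820 CPM with the Dia antibody. Its groups did not overlap, and the log2 ratio of 2.93 ± 1.03 had an adjusted p of 0.070. DESeq2 alone called it (0.0062). The other 7 scaRNAs stayed under 2.13 CPM in every library, with log2 ratios of 0.63 to 7.07 and adjusted p of 0.069 or more.

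Box H/ACA snoRNAs, the pseudouridylation guides, made up most of the calls. Their log2 ratios had a median of 3.15, and 90 of 93 lay above 0. Of these 93, 36 reached 20 counts in the Slam libraries and not in the Dia libraries, so their direction follows from the choice. Among the 56 that reached 20 counts in each group alone, the median was 2.91 and 54 lay above 0. Psi18S-531, singled out after its values were seen because it kept its call throughout, is FBgn0083027 at chrX:763083-763234, inside RpL22. It lay at 56.8, 22.4 and 91.8 CPM with the Slam antibody and at 5.93, 3.52, 7.01 and 1.93 CPM with the Dia antibody. Every Slam library was well above every Dia library, Slam 2 the least. The log2 ratio was 3.70 ± 0.55 with an adjusted p of 0.0051, and the log2 ratio over the alternatives ran from 3.15 to 4.16.

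Psi18S-920, at chr3L:11822984-11823124 inside RpL10Ab, had the lowest adjusted p of the members, 0.0014. It lay at 2.77, 3.66 and 24.6 CPM with the Slam antibody against 0.0732, 0.0640, 0.467 and 0.145 CPM with the Dia antibody, where 7 reads were counted in all. The pooled CPM ratio was 82.3, with a counting interval of 39.8 to 205, and Slam 3 held most of the reads. Psi18S-841d, inside dom, had 15, 37 and 177 counts with the Slam antibody and 0 with the Dia antibody, at least 48.1-fold (adjusted p 0.016). Psi28S-1192d inside RpS5a was likewise at 0 with the Dia antibody and at least 28.2-fold higher (adjusted p 0.036, 0.076 in the blocked fit).

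Of the called members, 4 had 1 to 3 reads with the Dia antibody in all. Psi28S-1135e had a pooled CPM ratio of 141 with a counting interval of 25.1 to 5604, and Psi18S-1275 a ratio of 68.1 with an interval of 11.97 to 2714. In the blocked fit neither was called (0.22 and 0.059). Intervals and floors cover counting error only. The called box H/ACA members of lowest ratio were better covered. Psi28S-2179 lay at 40.8, 10.3 and 45.4 CPM against 7.75, 5.12, 11.7 and 4.15 CPM (log2 ratio 2.20 ± 0.49, adjusted p 0.015). Slam 2 fell between the Dia libraries there. Psi28S-2648, Psi28S-1060, Psi28S-3436b, Psi28S-1837c, Psi18S-1854a, Psi28S-3308, Psi18S-1854b and Psi28S-3405d had log2 ratios of 2.56, 2.73, 2.76, 3.02, 3.10, 3.24, 3.32 and 3.35, with adjusted p of 0.0064 to 0.044. Psi18S-996, Psi28S-3186, Psi28S-1175b, Psi18S-1377d, Psi28S-1192a, Psi28S-3378, Psi18S-1377b, Psi28S-1135b, Psi28S-1192c, Psi18S-1377c, Psi28S-1175c and Psi28S-1153 completed the 27, with log2 ratios of 3.83 to 5.67 and adjusted p of 0.0034 to 0.048. Of these called members, Psi18S-1854a (0.0503) and Psi28S-1153 (0.082) lost their call in the blocked fit.

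The 4 most abundant box H/ACA members did not pass with all libraries, though alternatives called each of them, a pair as lower and a pair as higher. Psi28S-291, inside RpL3, lay at 186, 73.2 and 123 CPM with the Slam antibody and at 223, 292, 919.5 and 50.9 CPM with the Dia antibody. Psi28S-2566, inside CG3902, lay at 176.5, 57.9 and 101 CPM against 269.6, 216, 663 and 51.9 CPM. Both are over 200 nt long, both were highest in Dia 3, and their log2 ratios of -1.54 and -1.42 had adjusted p of 0.36 and 0.35. In the blocked fit both were lower (1.2e-06 and 6.4e-11). Psi18S-176, in no annotated host, lay at 380.3, 58.1 and 683 CPM against 39.1, 28.7, 50.9 and 28.4 CPM (log2 ratio 3.36, adjusted p 0.056), and Psi18S-1820, inside Nop60B, at 181, 17.8 and 309 CPM against 19.97, 16.9, 33.6 and 15.8 CPM (log2 ratio 3.00, adjusted p 0.098). Both were high in Slam 1 and 3. Of 14 alternatives 5 called Psi18S-176 higher, among them DESeq2 (2.3e-04), the blocked fit (1.8e-05) and the fit without Slam 2 (2.0e-07), and 2 called Psi18S-1820, DESeq2 (0.0057) and the fit without Slam 2 (4.0e-07). Per kilobase, the mean over the 7 libraries was 6714 CPM for 7SK, 1213 for Psi28S-291, 1177 for Psi18S-176, 819 for Psi28S-2566 and 774 for U11.

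Of 14 box H/ACA members inside RpS5a 7 were higher, of 6 inside RpS7 3, of 4 inside RpS16 2, of 4 inside RpL17 2 and of 10 inside dom 2, beside 27 of all 93 box H/ACA members. Inside kra 1 of 8 was higher, inside Hrb98DE 1 of 7 and inside CG10576 1 of 4. Some hosts are left out here. Of 4 inside Arpc2 and of 3 inside RpS4, 0 were higher. Whether calls gather in hosts was not tested. The 5 Psi18S-1377 copies of RpS7 summed to 144, 13.7 and 390 CPM with the Slam antibody and to 16.2, 6.98, 17.1 and 6.32 CPM with the Dia antibody. The 3 Psi28S-1175 copies summed to 4.56, 9.40 and 48.9 CPM against 0.951, 1.02, 0.701 and 0.675 CPM. Slam 3 was highest in both families, and Slam 2 lay below 1 or more Dia libraries in the first.

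Box C/D snoRNAs, the methylation guides, were rare in these libraries. The most abundant was U3:9B, which serves in cleavage of the ribosomal RNA precursor. It lay at 33.4, 12.48 and 62.3 CPM with the Slam antibody and at 29.9, 29.9, 43.2 and 42.9 CPM with the Dia antibody (log2 ratio -0.01, adjusted p 0.99). The other 54 summed to 32.2, 38.6 and 84.5 CPM against 6.14, 13.3, 18.9 and 8.20 CPM. Among the 81 box H/ACA members above 0 in both libraries, the median ratio of Slam 1 to Slam 2 was 3.81-fold. For 44 such box C/D members it was 0.61-fold. Over all 55 box C/D members the median level in Slam 1, 2 and 3 was 0.358, 0.439 and 0.945 CPM. Their sum was 65.6, 51.1 and 147 CPM, so whether Slam 2 was the low library for them depends on the measure. The difference in ratios between boxes is a description with no test.

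Of the 6 called box C/D members, 5 lie inside Uhg genes, whose spliced products code for no protein and which serve as snoRNA hosts. Me28S-G2703a, inside Uhg5, lay at 0.670, 0.176 and 6.85 CPM against 0 counts, at least 47.1-fold (adjusted p 0.023). U14:30Eb inside Uhg2, Me18S-C1366 and Me28S-U1848 inside Uhg5, and Me18S-U1356c inside Uhg8 also had 0 counts with the Dia antibody and were at least 22.1-fold, 17.4-fold, 13.7-fold and 16.2-fold higher (adjusted p 0.037 to 0.049). These 4 were called in 2 to 4 of their 12 alternatives and not in the blocked fit (0.088 to 0.13). Or-CD1, inside Swim, lay at 5.68, 0.557 and 14.5 CPM against 1.02, 0.256, 1.17 and 0.434 CPM (log2 ratio 3.32, adjusted p 0.041, 0.089 in the blocked fit).

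The 27 box C/D members inside Uhg genes summed to 10.95, 13.7 and 35.4 CPM with the Slam antibody and to 1.39, 2.18, 6.77 and 2.03 CPM with the Dia antibody. Of these 27, 26 were members through the Slam libraries alone, so the choice of members favours a higher sum there. The Uhg transcripts themselves were higher with the Slam antibody for Uhg1, Uhg2, Uhg4, Uhg5 and Uhg8 of the 7 tested. Uhg2 lay at 56.5, 92.4 and 71.7 CPM against 2.93, 4.42, 10.04 and 4.73 CPM (log2 ratio 3.82, adjusted p 2.5e-06). Hosts were found by coordinates with no strand, and reads of an unspliced host can be counted on the snoRNA inside it.

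Host transcripts and the members inside them were read side by side. All 26 ribosomal protein hosts had a log2 ratio below 0, from -1.25 to -0.04, and 12 were lower, while the median of the members inside each was above 0. Over all 64 hosts, 50 likewise had a host ratio below 0 and a member median above 0. Single members could share the host's sign, as Psi28S-291 did inside RpL3. Of the 42 box H/ACA members inside ribosomal protein hosts 19 were higher, and of the 21 box C/D members 0, beside 6.01% of all genes tested. RpS7 mRNA lay at 1408 ± 218 CPM with the Slam antibody and 2285 ± 573 CPM with the Dia antibody (log2 ratio -0.70, adjusted p 0.070).

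SC35-b was the only called snoRNA of other name, at 0.670, 0.117 and 13.4 CPM against 0, 0.192, 0 and 0.0965 CPM (adjusted p 0.028, 0.13 in the blocked fit), high in Slam 3 alone. Tudor-SN-a, the longest and most abundant of these, lay at 53.8, 42.9 and 63.1 CPM against 64.2, 74.7, 250.1 and 22.2 CPM (log2 ratio -0.93, adjusted p 0.50). It was lower in the blocked fit alone (2.8e-04). The median log2 ratio of the 22 was 2.04, and 0.98 over the 11 that reached 20 counts in each group alone.

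**Figure D4:**
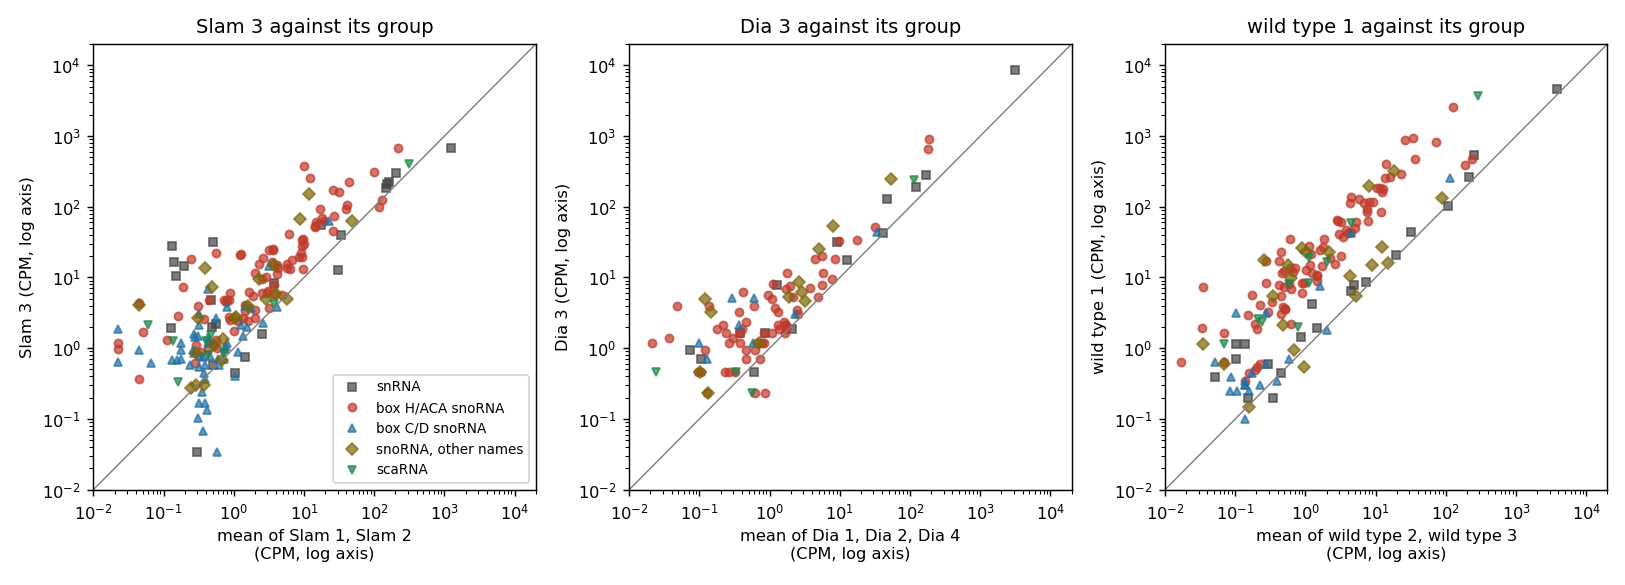
Level of each member (CPM, log axes) in Slam 3, Dia 3 and wild type 1 against the mean of the other libraries of its group, coloured by class; the line marks equal levels, and the 198, 103 and 161 members above 0 on both axes are drawn. Box H/ACA members lay above the line in Slam 3 (median 3.42-fold) and most of all in wild type 1 (13.0-fold), while snRNAs lay near it in wild type 1 (1.42-fold).

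In the GFP-binder experiment no member was called by edgeR in either direction, with 0.378% of the 10061 genes tested higher and 0.179% lower from GFP-slam lysate. At an unadjusted p under 0.05 there were 1 higher and 2 lower members, and DESeq2 called 1 higher and 1 lower. Both GFP-slam libraries lay above all wild-type libraries for 2 members, against 8.31% of all genes, and below them for 22 members, against 9.17%. The median log2 ratio over members was -1.86, and -0.001 without wild type 1, against 0.003 over all genes. For box H/ACA members it went from -2.28 to -0.06 and for scaRNAs from -2.05 to 0.02 when that library was left out. Of the 90 box H/ACA members 89 were highest in wild type 1, and so were all 11 scaRNAs.

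U2:34ABa came closest to a call. It lay at 163.5 and 99.3 CPM with GFP-slam and at 43.7, 19.2 and 43.8 CPM in wild type, and the groups did not overlap. The log2 ratio was 1.89 ± 0.37 with an edgeR adjusted p of 0.067, and it passed in 6 of 12 alternatives, DESeq2 among them (2.6e-04). In the antibody experiment its ratio was 2.05 ± 0.68, and the difference between both ratios, 0.11 ± 0.90, had an adjusted p of 0.96. The interval is wide, so equal ratios are not shown. Its near copy U2:14B lay at 4.04 and 1.27 CPM against 7.71, 3.81 and 5.97 CPM (log2 ratio -1.14).

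The other snRNAs were not called with GFP-slam under edgeR, and the U5 copies varied widely between libraries. 7SK lay at 3977 and 2990 CPM with GFP-slam and at 4659, 2582 and 5079 CPM in wild type (log2 ratio -0.24 ± 0.34). U11 lay at 443 and 220.2 CPM against 535, 156 and 339.7 CPM, and U12:73B at 311 and 170.1 CPM against 266, 149.8 and 279 CPM. The groups of both overlapped. The 3 U1 members summed to 126 and 94.9 CPM against 123, 74.6 and 176 CPM. No snRNA other than U2:34ABa passed at an unadjusted p of 0.05.

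MeU5-C46, higher with the Slam antibody, lay at 105.5 and 290.0 CPM with GFP-slam and at 3672, 324 and 254 CPM in wild type. Wild type 1 was the only high library, the log2 ratio was -2.84 ± 1.73, and it was -0.55 without wild type 1. The adjusted p was 1.0 with all libraries. PsiU2-55 lay at 1.34 and 1.95 CPM against 59.0, 3.88 and 5.10 CPM, below wild type in both libraries (log2 ratio -3.77).

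Among the abundant box H/ACA members, Psi18S-176 lay at 142 and 80.9 CPM with GFP-slam and at 2570, 92.4 and 159.8 CPM in wild type. Psi18S-1086 lay at 37.9 and 24.6 CPM against 926, 17.6 and 50.4 CPM, and Psi18S-1820 at 84.3 and 69.4 CPM against 816, 58.7 and 85.3 CPM. Without wild type 1 the groups of all 3 overlap. The long Psi28S-291 lay at 196.5 and 163 CPM against 391, 125 and 243 CPM (log2 ratio -0.49), and Psi28S-2566 at 210.3 and 128 CPM against 466, 121 and 349.7 CPM (log2 ratio -0.88), so wild type 1 stood out less in them. Across the 90 box H/ACA members, Spearman's rank correlation of levels between GFP-binder libraries was 0.89 to 0.95, and across the 93 of the antibody table it was 0.57 to 0.87. These points share libraries, lengths and copies.

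The 154 members of both tables were set side by side. In 20 both log2 ratios lay above 0, in 122 the antibody ratio lay above and the GFP-binder ratio below, in 1 the reverse, and in 11 both lay below. The share of all genes with each pair of signs was not counted. Over all GFP-binder members the median log2 ratio was -1.86, and -0.001 without wild type 1. The antibody sign follows in part from the choice, since 109 of the 203 antibody members reached 20 counts in the Slam libraries and not in the Dia libraries. Or-CD12, chosen after its values were seen, was the only member whose groups were apart in the same direction in both experiments. The same held for 1.39% of the 9439 genes tested in both experiments. In 6 members the Slam libraries lay above Dia and the GFP-slam libraries below wild type, as in 1.96% of all genes: PsiU2-55, Or-aca1, Psi18S-1377b, Psi28S-1837c, Psi28S-3186 and Psi28S-3385b. Or-CD12 had 35, 39 and 44 counts with the Slam antibody against 0, 0, 0 and 4 with the Dia antibody, and 9 and 39 counts with GFP-slam against 0, 2 and 5 in wild type. Its adjusted p was 0.075 and 0.94, and with the Slam antibody 3 of 13 alternatives called it, the blocked fit (0.045) and DESeq2 (0.029) among them.

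A fit over both tables tested the difference between the ratios, in which 1.62% of 9439 genes were called for a higher ratio with the antibody and 0.530% for a lower one. Of the members 3 were called, all with the higher ratio in the antibody experiment. The difference in log2 was 6.62 for PsiU2-55 (adjusted p 0.037), 12.1 for Psi18S-841d (0.038) and 7.71 for Pi4KIIalpha-a (0.045). Pi4KIIalpha-a had 43, 8 and 82 counts with the Slam antibody against 2, 0, 0 and 0, and 45 and 101 counts with GFP-slam against 461, 72 and 56 in wild type. Without Slam 3 none of the members was called, and without wild type 1 none of these 3 was, with adjusted p of 0.079 to 0.15. Without Dia 3 Psi18S-841d kept its call (0.041), and PsiU2-55 (0.067) and Pi4KIIalpha-a (0.057) lost it.

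**Figure D5:**
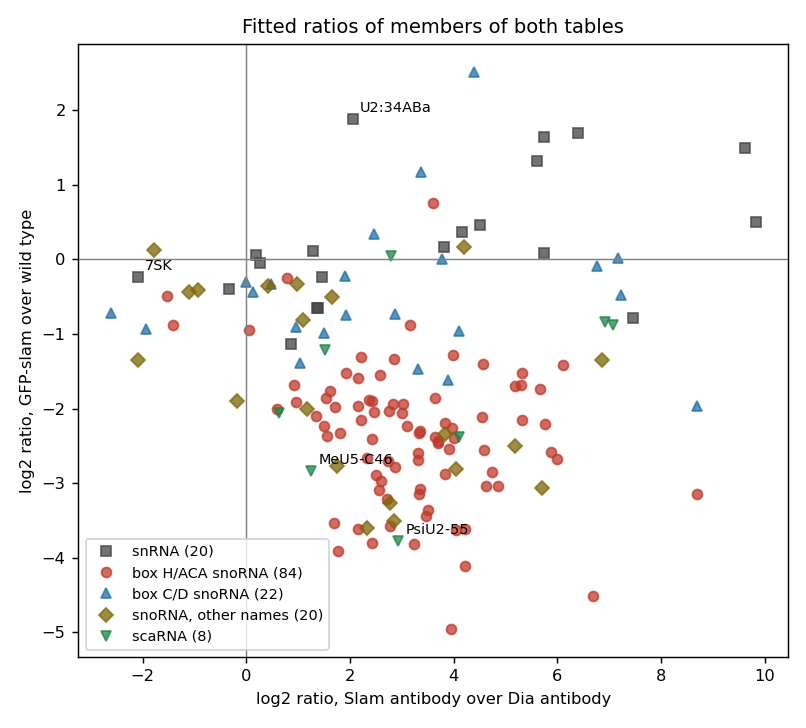
Fitted log2 ratio of each of the 154 members of both tables with the Slam antibody over the Dia antibody (horizontal) and with GFP-slam over wild type (vertical), by class. Of the points, 122 lie at lower right, where the antibody ratio is above 0 and the GFP-binder ratio below, and U2:34ABa lies at 2.05 and 1.89. Over all GFP-binder members the median is -1.86, and -0.001 without wild type 1. The antibody sign follows in part from the choice of members.

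The proteins that bind these RNAs were followed through their mRNAs in 28 genes, all tested in both tables. With the Slam antibody 1 was higher and 5 were lower, beside 6.01% and 5.07% of all genes tested. With GFP-slam 0 differed, beside 0.378% higher and 0.179% lower of all genes. hoip, the protein that recognises the fold shared by box C/D RNAs and U4, was higher (48.2 ± 12.7 CPM against 19.0 ± 7.41 CPM, log2 ratio 1.33, adjusted p 0.011). Fib, the methyltransferase of box C/D particles, was lower (58.7 ± 9.74 CPM against 107 ± 27.1 CPM, adjusted p 0.029), as were the Sm proteins SmD1 and SmD2, the assembly factor Gem2, and Hexim. Of the 4 box H/ACA proteins none was called: Nop60B, the pseudouridine synthase, had a log2 ratio of -0.41 (adjusted p 0.19).

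Neighbouring stable RNAs that are no members were read beside 7SK. RNaseP:RNA, the RNA of the enzyme that trims tRNA precursors, lay at 105, 73.3 and 55.9 CPM with the Slam antibody against 343.5, 455, 263 and 151 CPM with the Dia antibody, and was lower (log2 ratio -1.96, adjusted p 0.0039). RNaseMRP:RNA, its relative in ribosomal RNA processing, had a log2 ratio of -0.77 (adjusted p 0.063). With GFP-slam their log2 ratios were -0.19 and -0.39 (adjusted p 1.0). Both are, like 7SK, long stable RNAs, and the 3 ratios with the Slam antibody lay below 0 while most members lay above. Of the 3 only RNaseP:RNA was called by edgeR. MeU5-C46, which is 316 nt long, went the other way and was higher (log2 ratio 1.25, edgeR adjusted p 0.012). Whether length goes with the ratio was not tested.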

How the data were processed

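RNA precipitated from lysates of 1.5 to 3 h embryos was sequenced in 7 antibody libraries and 5 GFP-binder libraries. The deposited tables hold read counts per gene, which the authors made from reads converted with bcl2fastq 2.17.1.14, checked with FastQC 0.11.4 and aligned with STAR 2.5.0, by the submitters' processing notes. Which counter, strand setting, build and annotation served is not stated in the sources read. The TruSeq kit limits what these counts show of short RNAs, and of RNAs without poly(A) tails if polyadenylated RNA was selected. Tables of candidates were used for coordinates only; their fold changes and p-values were not used.

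The members and all gene lists were chosen with earlier results of these data known. Counts as deposited were tested with edgeR 4.0.16 (quasi-likelihood, TMM, robust) in R 4.3.3, over genes with at least 20 summed counts, with Benjamini-Hochberg adjustment and a threshold of 0.05. CPM values were scaled by TMM. The text names snRNAs and scaRNAs, the 5 snoRNAs of highest mean CPM in each experiment, up to 10 called snoRNAs of highest and 10 of lowest ratio, those called the same way in both experiments and the 3 on either side of the limit of 20. The other snoRNAs named (such as Psi18S-531, U3:9B, SC35-b, Tudor-SN-a, Or-CD12 and Pi4KIIalpha-a) were chosen after their values were seen. A box was read from the symbol, lengths came from Release 6 of RefSeq, and hosts were found by coordinates without strand. No sequence was used here. The difference between both ratios was fitted over the genes tested in both tables. Alternatives were RLE factors, library totals, DESeq2 1.42.0, other limits of counts, the replicate number as a block, and each library left out. Deviations of Slam and Dia libraries of the same number from their group means correlated at 0.18, 0.209 and 0.109. Those of Slam 3 and Dia 4, of unlike number, correlated at 0.159, so pairing by number is not settled. The labels do not say that numbers pair, and the main fit has no block. Blocked values are printed where they change the call of a gene described with its values. Scripts were tested on simulated counts. Python 3.11.15, pandas 2.3.3, scipy 1.17.1 and matplotlib 3.10.9 made the summaries and figures.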

Additional observations from a re-analysis of the deposited data

Results flagged for a closer look

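In 10 of 61 groups of 4 Dia libraries that were examined, 1 library stood away from the other 3, by its gap to the nearest of them over the whole range, which passed Dixon's 95% limit for 4 samples. Chance alone does so in about 1 of 20 groups of continuous values. For counts near 0, a single read in 1 library with 0 in the others gives 1.0 by construction, so the number of such groups is not read against that rate. The ratio was 1.0, with the other libraries at 0 or equal, for the scaRNAs MeU2-C41 and PsiU2-38.40.42 in Dia 1, for U5:38ABa and Psi28S-1135e in Dia 2, for U5:38ABb and U6:96Ac in Dia 3 and for Psi18S-1275 in Dia 4. It was 0.843 for PsiU1-6, 0.845 for U1:95Cb and 0.925 for Psi28S-3436b, each with Dia 3 the highest. Most of these rest on 1 or a few reads in the library that stands apart. Psi28S-3436b is the best covered, at 4.90 CPM in Dia 3 against 1.17, 1.15 and 0.868 CPM in the others, and its ratio of Slam over Dia (log2 2.76) was still called.

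For 3 members the ratio of Slam over Dia and the ratio of GFP-slam over wild type differed by a test of the difference itself. The log2 difference was 6.62 for PsiU2-55, 12.1 for Psi18S-841d and 7.71 for Pi4KIIalpha-a. The value for Psi18S-841d depends on the prior count, since no Dia library held a read of it. All 3 were highest in wild type 1 of their GFP-binder libraries, and without wild type 1 the adjusted p was 0.099, 0.079 and 0.15. The part of that library in the difference beyond these values was not tested.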

How the results depend on the processing

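The count of higher members in the antibody experiment, 37 of 203 tested, became 62 of 203 with DESeq2. At the study's own limit of counts it was 23 of the 72 members still tested. The 0 lower members became 1 with DESeq2 and 5 with the replicate block, where 538 and 1129 of all 10942 genes were lower. Leaving out 1 library gave 8 to 42 higher and 0 to 2 lower members, of 167 to 203 tested. RLE factors moved the median of all genes from 0.09 to 0.20 and the split of all calls from 658 higher and 555 lower to 668 and 268, while members stood at 34 and 0. In the GFP-binder experiment, where no member was called, 1 was higher with RLE factors, with DESeq2, with no minimum of counts and with the replicate block. There 1 was lower with DESeq2, 68 with no minimum and 39 with the block. Of all genes 106 of 10061, 165 of 13557 and 102 of 10061 were lower in those fits. Leaving out 1 library gave 0 to 1 higher and 0 to 2 lower. Members differing between both ratios, 3, ran from 0 to 4. The median prior degrees of freedom were infinite in both blocked fits and without a minimum in the GFP-binder table, which makes small p-values easier to reach. In the GFP-binder experiment 2 numbers occur in both groups (correlations 0.213 and 0.236), and the labels do not say that they pair either.

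With the replicate block the log2 ratio of Slam over Dia turned sign for MeU5-U42 (-0.74), U12:73B (-0.0226) and U1:95Cb (0.77), and that of GFP-slam over wild type for PsiU1-6 (-0.14), LU (-0.10), U12:73B (-0.24), U1:95Cc (-0.16), U4:38AB (-0.21), U4:39B (-0.33), U5:14B (-0.74) and U5:23D (-0.17). With 1 library left out, Slam over Dia ran from -0.027 to 0.44 for U12:73B, -0.38 to 0.025 for U1:95Ca, -0.48 to 1.45 for U1:95Cb, -0.66 to 0.78 for U2:34ABb and -0.38 to 4.84 for U5:23D. GFP-slam over wild type ran from -2.20 to 0.75 for MeU2-48, -2.92 to 0.23 for MeU2-C41, -0.58 to 0.62 for PsiU1-6, -1.71 to 0.72 for PsiU2-38.40.42, -0.0916 to 0.36 for LU, -0.63 to 0.42 for U11, -0.44 to 0.41 for U12:73B, -0.49 to 0.12 for U1:82Eb, -0.17 to 0.41 for U1:95Cc, -0.38 to 0.997 for U4:38AB, -0.32 to 0.41 for U4:39B, -6.73 to 2.21 for U5:14B, -1.25 to 1.19 for U5:23D, -0.39 to 2.94 for U5:34A, -2.34 to 3.35 for U5:63BC and -2.55 to 0.091 for Psi18S-1820. None of these was called with all libraries, and the cause was not tested. Of the other values under alternatives that leave out no library, 313 in the antibody and 225 in the GFP-binder experiment kept direction and side of the threshold. In the antibody experiment 19 crossed it upward and 18 downward, and with 1 library left out 8 and 97.

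Without its most abundant member, the snRNA share of counts was 0.0888% with the Slam antibody, 0.0475% with the Dia antibody, 0.0829% with GFP-slam and 0.0756% in wild type. The scaRNA share was 0.000818%, 0.000115% and 0.00094% in the first 3 groups, and the snoRNA share with GFP-slam was 0.107%. The shallow Dia 3 library, at 4383704 counts, limits what a count of 0 shows there.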
